A study of Mus musculus with 29 samples.

Results

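Axon guidance ligands and receptors are the secreted and membrane proteins through which growing neurites are attracted, repelled or held in a layer, and many of them stay in adult synapses. They were taken here as every gene whose symbol belongs to the semaphorins, plexins, neuropilins, ephrins, Eph receptors, Slits, Robos, netrins with the netrin-G proteins, or Unc5 receptors, together with *Dcc*. The rule found 72 of 24062 genes in the mouse retina RNA-seq data: 20 semaphorins, 9 plexins, 2 neuropilins, 8 ephrins, 14 Eph receptors, 3 Slits, 4 Robos, 6 netrins, 5 netrin receptors (*Dcc* and the Unc5 genes) and 1 antisense RNA, *Plxna4os1*, whose symbol matched the rule although it encodes no guidance protein.

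The 15 RNA-seq libraries came from FACS-sorted cells, 3 from each of 5 populations. Pan-BC libraries held all bipolar cells of Otx2-GFP+/- mice at postnatal days 44 and 47. ON-BC (single sort) and OFF-BC (double sort) libraries came from mice that were Otx2-GFP+/- and Grm6-YFP+/+, at postnatal days 42, 43 and 48. In these animals GFP is knocked into 1 *Otx2* allele and YFP is driven by the *Grm6* promoter. The gate between both classes rests on that promoter, and the bipolar type BC5D was probably lost from both gates. Rods came from Nrl-eGFP mice and blue cones from Nrl-eGFP;NrlKO mice, all at postnatal day 56. The blue cones are thus photoreceptors that lack *Nrl* and stand in for native blue cones. Open chromatin was measured by ATAC-seq in 2 libraries each of the same 5 populations and of green cones from Opn1mw-GFP mice, and here the pan-BC donors also carried Grm6-YFP+/+ (postnatal days 42 to 46 for all bipolar libraries). Rod and cone libraries are older data of the laboratory, processed again with the new ones, so cell class, study and age cannot be told apart in any comparison of bipolar cells with photoreceptors.

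Semaphorins signal through plexins, and most secreted class 3 semaphorins also need a neuropilin as co-receptor. Ephrins bind Eph receptor kinases in 2 broadly separate classes, A and B, and both partners can signal. Slits act on Robo receptors, netrin 1 on DCC and UNC5 receptors, and the membrane-anchored netrin-G proteins on the LRRC4 family at synapses. In the retina such pairs are known for sorting neurites into the ON and OFF sublayers of the inner plexiform layer, where ON and OFF bipolar axons end at different depths.

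Values are read counts divided by 1 size factor per library (normalized counts). Each RNA library held 12329548 to 26266746 counted reads and each ATAC library 4176776 to 12345845. A gene or region was called when limma's moderated test placed its change beyond 2-fold at a Benjamini-Hochberg adjusted p below 0.05, taken over all 14024 genes or 108448 regions that passed a filter on low counts, and log2 fold changes are on the scale log2(normalized count + 1), given with the standard error of the fit. The summed markers of ON bipolar cells ranged from 98080 to 110600 (ON-BC) and from 5688 to 10020 (OFF-BC). Those of OFF bipolar cells were 34990 to 58290 in OFF-BC and 8383 to 11840 in ON-BC, but 2 of the 4 genes of that list went the other way on average, *Vsx1* (975 in ON-BC, 287 in OFF-BC) and *Nfia* (9102 and 5151), and the OFF-BC sum was mostly *Grik1* (38800). OFF-BC replicate 3 stood apart in cone markers, with a sum of 86160 against 22130 and 20170 in the other OFF-BC libraries, 3991 to 4575 in ON-BC and 1460000 to 1676000 in blue cones. Rod markers summed to 17120 to 20890 (ON-BC), 902 to 1432 (OFF-BC) and 1435000 to 2074000 (rods). Of other cell types, amacrine markers (5 genes, all detected) summed to 226 to 347 (ON-BC) and 731 to 925 (OFF-BC), and microglial markers (5 genes, all detected) to 33.9 to 48.0 and 61.5 to 189. Horizontal cell markers (3 genes) summed to 69.1 to 99.0 (ON-BC) and 23.5 to 58.9 (OFF-BC), mostly *Onecut2*. *Lhx1* and *Onecut1* were near 0 and went the other way on average. Astrocyte markers (3 genes) summed to 10410 to 13460 and 23680 to 31980, mostly *Aldoc*, which was also 11580 on average in rods. *Gfap* went the other way (9.55 and 7.86). These sums all separated the classes, and their part in the results between the classes was not tested. The amacrine sum was mostly *Slc6a9* (159 on average in ON-BC, 566 in OFF-BC), which was higher in rods (2271) and blue cones (1476). Of the other amacrine genes, *Tfap2b* (54.5 and 212) and *Tfap2a* (4.73 and 8.86) went with the sum. *Gad2* was near even (20.05 and 22.5), and *Gad1* went the other way (37.7 and 27.7). Endothelial markers (7 genes) summed to at most 58.5 in any bipolar library. In bulk libraries, fewer cells of a type and less RNA per cell cannot be told apart.

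Of the 72 members, 56 passed the filter and were tested. The other 16 (*Efna3*, *Efna4*, *Epha2*, *Epha6*, *Ephb1*, *Ephb4*, *Ntn1*, *Ntn4*, *Ntn5*, *Plxnb3*, *Plxnd1*, *Robo1*, *Robo4*, *Sema3c*, *Sema3g* and *Plxna4os1*) had few reads everywhere, and the highest value among them in any library was 23.3, for *Plxnd1* in a blue cone library. The ligand netrin 1 itself was among them: *Ntn1* was at most 8.41 in any library.

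**Figure D1:**
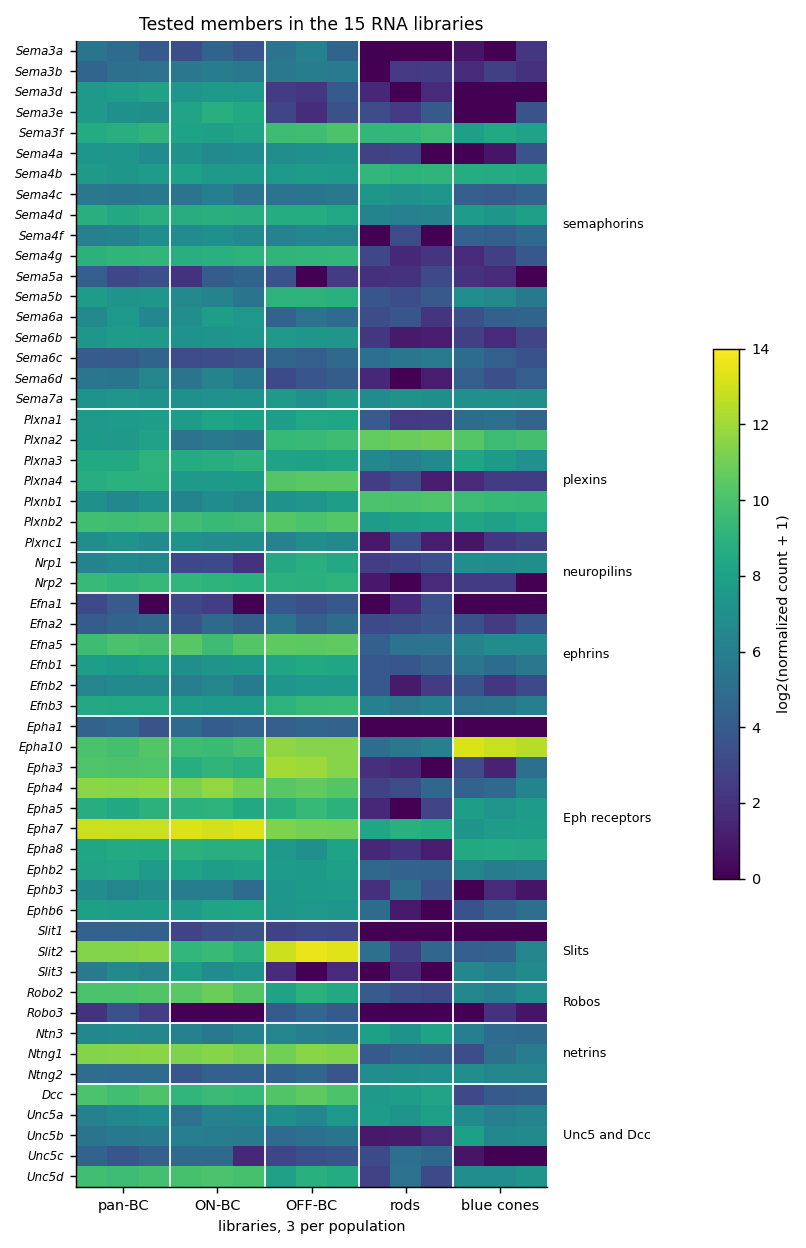
Heat map of the 56 tested members (rows, grouped by family) in the 15 RNA-seq libraries (columns, 3 per population). Colour gives log2(normalized count + 1). Most rows are brighter in the 9 bipolar libraries than in rods, whereas *Plxna2*, *Plxnb1* and *Sema4b* are brighter in photoreceptors and *Epha10* is brightest in blue cones.

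Levels can be compared between genes only per length, here as normalized counts per kb of RefSeq exon (mean ± SD, n = 3). In pan-BC the most abundant member was *Epha7*, an Eph receptor of class A, at 922 ± 33.3 per kb. It was followed by *Ntng1*, the membrane-anchored netrin-G1, at 511 ± 15.1 and *Epha4* at 486 ± 20.4, which do not differ beyond their spread. The Slit with the highest level in pan-BC was *Slit2* at 281 ± 12.7 per kb, and the highest ephrin was *Efna5* at 175 ± 19.0. *Sema4g* (130 ± 10.1), *Plxnb2* (130 ± 5.61), *Robo2* (112 ± 7.49), *Dcc* (96.5 ± 9.82) and *Nrp2* (79.5 ± 6.66) led the semaphorins, plexins, Robos, netrin receptors and neuropilins per kb. In rods the order was another: *Sema3f* (167 ± 21.8 per kb), *Plxna2* (160 ± 17.9) and *Sema4b* (151 ± 11.0) came first, within each other's spread, and *Ntng2* (63.8 ± 3.99) led the netrins and *Unc5a* (50.1 ± 10.8) the netrin receptors. *Efnb3* led the ephrins in rods (18.4 ± 3.75 per kb) and *Nrp1* the neuropilins (1.17 ± 0.426). In blue cones 1 receptor dominated, *Epha10* at 1265 ± 325 per kb, with *Sema4b* next at 101 ± 6.73.

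The comparison of ON-BC with OFF-BC asked which guidance genes separate bipolar cells whose axons end in different sublayers. The study estimates that rod bipolar cells are the larger part of its ON population and probably give much of its signal. ON against OFF class and rod bipolar against cone bipolar cells therefore cannot be told apart in this comparison. 15 of the 56 tested members were called. 6 were higher in ON-BC, where 2.80% of all tested genes were called: the ligands *Slit3*, *Sema3e*, *Sema3d* and *Sema6a* and the receptors *Epha7* and *Robo2*. 9 were higher in OFF-BC, against 3.43% of all genes: the receptors *Nrp1*, *Robo3*, *Plxna2*, *Plxna4* and *Epha10* and the ligands *Slit2*, *Sema5b*, *Sema3f* and *Efnb3*. Called members were thus 26.8% of those tested, while the median log2 fold change over the 56 was -0.13, close to -0.01 over all genes. Without OFF-BC replicate 3, the library with the high cone markers, the calls were 4 toward ON-BC and 8 toward OFF-BC.

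**Figure D2:**
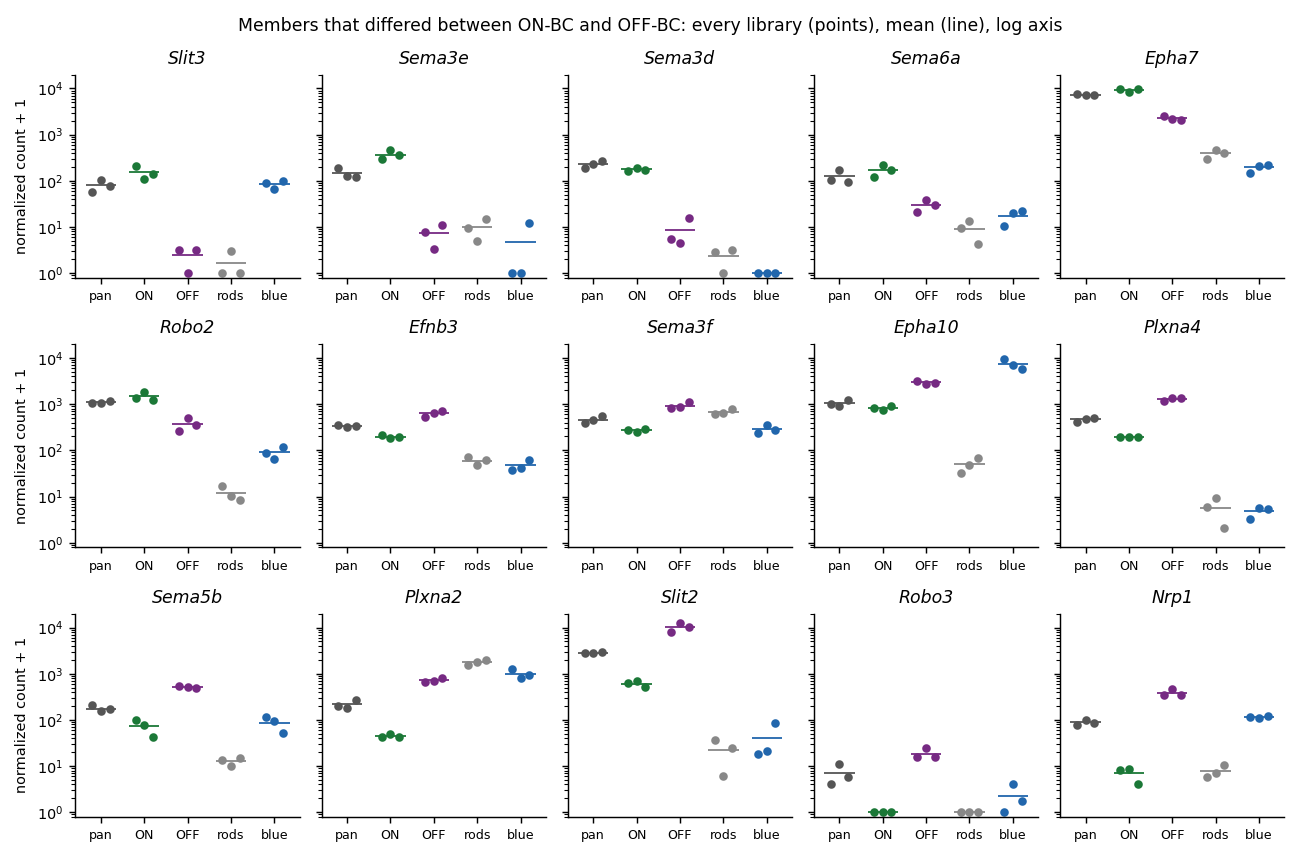
Normalized count + 1 (log axis) of the 15 members called between ON-BC and OFF-BC, in every RNA-seq library of the 5 populations (points) with the group mean (line). ON-BC and OFF-BC points do not overlap in any panel, which the choice of members by that call favours. Pan-BC lies between them or near the ON-BC level in most.

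Among the ligands higher in ON-BC, *Slit3*, a secreted Slit, had normalized counts of 203, 107 and 142 in the 3 ON-BC libraries and 2.24, 0 and 2.21 in OFF-BC, that is 2, 0 and 2 reads. Its log2 fold change was 6.07 ± 0.52 (limma adjusted p = 1.96e-06). *Sema3e*, a secreted semaphorin whose known receptor is plexin D1, reached 292, 459 and 357 in ON-BC and 6.71, 2.40 and 9.93 in OFF-BC (5.79 ± 0.74, limma adjusted p = 0.000152). *Sema3d*, another secreted semaphorin, read 162, 192 and 172 in ON-BC and 4.47, 3.60 and 14.4 in OFF-BC (4.60 ± 0.49, limma adjusted p = 4.17e-05). All 3 were thus near the limit of detection in OFF-BC. They differed in photoreceptors: *Slit3* was 90.2, 65.3 and 99.2 in blue cones, as high as in pan-BC, whereas *Sema3d* had no read in any blue cone library.

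*Sema6a*, a transmembrane semaphorin that binds class A plexins, had 121, 221 and 173 in ON-BC and 20.1, 37.2 and 28.7 in OFF-BC (2.54 ± 0.44, limma adjusted p = 0.0241). *Epha7* had 9789, 8570 and 9805 in ON-BC and 2497, 2176 and 2086 in OFF-BC (2.06 ± 0.16, limma adjusted p = 0.000112). The Slit receptor *Robo2* had 1354, 1863 and 1224 in ON-BC and 264, 508 and 353 in OFF-BC (2.01 ± 0.28, limma adjusted p = 0.0190). The groups did not overlap for any of these genes, which adds no evidence since the genes were chosen by their calls in the same libraries. The calls of *Sema6a* and *Robo2* each rested on single libraries: leaving out ON-BC replicate 2 gave adjusted p = 0.119 and 0.114, OFF-BC replicate 1 gave 0.125 and 0.128, and OFF-BC replicate 3 gave 0.0567 and 0.0554. Leaving out ON-BC replicate 3 also ended the call of *Sema6a* (limma adjusted p = 0.0791).

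Among the receptors higher in OFF-BC, *Nrp1*, the neuropilin co-receptor for several class 3 semaphorins, had 353, 460 and 352 in OFF-BC and 7.22, 7.84 and 3.08 in ON-BC. Its log2 fold change of -5.86 ± 0.32 was the largest toward OFF-BC (limma adjusted p = 2.18e-08). The second neuropilin, *Nrp2*, was 493, 469 and 529 in OFF-BC and 603, 520 and 489 in ON-BC, with overlapping libraries (0.11 ± 0.52, limma adjusted p = 1). *Plxna2*, a plexin that receives transmembrane class 6 semaphorins, had 662, 686 and 789 in OFF-BC and 41.3, 49.0 and 41.0 in ON-BC (-3.99 ± 0.18, limma adjusted p = 5.87e-09). *Plxna4*, the related plexin known as a SEMA6A receptor in the inner plexiform layer, had 1198, 1372 and 1385 in OFF-BC and 190, 190 and 198 in ON-BC (-2.76 ± 0.39, limma adjusted p = 0.00391). *Plxna2* was also abundant in rods and blue cones, and OFF-BC replicate 3, with the highest cone markers, had the highest of the OFF-BC values (789). Its log2 fold change without that library was -3.92 (limma adjusted p = 5.35e-08). Both plexins that are known to bind SEMA6A were thus higher in OFF-BC and the ligand *Sema6a* in ON-BC. The other tested plexins did not pass: *Plxna1* had a log2 fold change of -0.19 ± 0.36, *Plxna3* 0.70 ± 0.24, *Plxnb1* -0.92 ± 0.19, *Plxnb2* -0.64 ± 0.13 and *Plxnc1* 0.36 ± 0.55.

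*Robo3*, a divergent Robo, had 14.5, 24.03 and 14.3 in OFF-BC and no read in any ON-BC library (limma adjusted p = 0.000485), which puts it at least 5.80-fold higher in OFF-BC against a floor of 3 reads per library. *Robo2* and *Robo3* therefore lay on opposite sides, though *Robo3* was a rare transcript (6.06 on average in pan-BC, against 1101 for *Robo2*). *Epha10*, an Eph receptor that lacks kinase activity, had 3247, 2763 and 2827 in OFF-BC and 813, 744 and 935 in ON-BC (-1.83 ± 0.22, limma adjusted p = 0.0148). *Epha10* is the member most abundant in blue cones (9501, 7211 and 5692), and OFF-BC carried more cone marker RNA than ON-BC, whose part in the *Epha10* level was not tested. OFF-BC replicate 3, with the highest cone marker sum, had 2827 of *Epha10*. Its call was lost without ON-BC replicate 1 (adjusted p = 0.0502), ON-BC replicate 2 (0.0647) or OFF-BC replicate 1 (0.0722). With no filter on low counts, the calls of *Epha10* (limma adjusted p = 0.100), *Sema6a* (0.0945), *Robo2* (0.0984) and *Efnb3* (0.0764) were all lost.

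Among the ligands higher in OFF-BC, *Slit2* had 7965, 12510 and 10170 in OFF-BC and 625, 684 and 517 in ON-BC (-4.05 ± 0.54, limma adjusted p = 0.000555). Per kb it was the most abundant member of all in OFF-BC, at 1021 ± 227. The Slits thus split, *Slit2* toward OFF-BC and *Slit3* toward ON-BC, while *Slit1* stayed between 5.59 and 10.3 in both. *Sema5b*, a transmembrane semaphorin known to confine neurites to the inner plexiform layer through plexin A1 and A3, had 531, 524 and 481 in OFF-BC and 97.0, 76.4 and 41.0 in ON-BC (-2.91 ± 0.32, limma adjusted p = 0.000384). *Sema3f*, a secreted ligand of neuropilin 2, had 814, 849 and 1106 in OFF-BC and 276, 246 and 287 in ON-BC (-1.76 ± 0.17, limma adjusted p = 0.00501). *Efnb3*, a class B ephrin, had 535, 657 and 728 in OFF-BC and 210, 185 and 191 in ON-BC (-1.70 ± 0.22, limma adjusted p = 0.0383). The call of *Efnb3* was the least stable: it was lost without ON-BC replicate 1 (adjusted p = 0.0690), 2 (0.119) or 3 (0.111) and without OFF-BC replicate 2 (0.126) or 3 (0.171), and under scaling by TMM (0.0556) or by library totals (0.0585).

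The remaining 41 tested members were not called. *Epha3*, an Eph receptor of class A, came closest, with 4439, 4008 and 2768 in OFF-BC and 419, 569 and 470 in ON-BC (-2.92 ± 0.65, limma adjusted p = 0.0679), and it was called by edgeR's test against the same 2-fold threshold. *Sema6d* had 41.3, 75.4 and 49.2 in ON-BC and 7.82, 12.01 and 16.6 in OFF-BC (2.11 ± 0.46, limma adjusted p = 0.177). Both groups of libraries were separate for these genes too. *Ntng1* was abundant and near equal, with 2315 to 2849 for ON-BC against 2092 to 2972 for OFF-BC (0.01 ± 0.41). The netrin receptors *Dcc* (-0.87 ± 0.23), *Unc5a* (-1.07 ± 0.33), *Unc5b* (0.73 ± 0.37), *Unc5c* (0.45 ± 0.73) and *Unc5d* (1.46 ± 0.43) had adjusted p = 1 in the limma test, as had the class B ephrins *Efnb1* (-1.10 ± 0.24) and *Efnb2* (-1.39 ± 0.53) and their receptor *Ephb2* (0.24 ± 0.21). *Ephb3* was 162 to 200.8 in OFF-BC and 28.7 to 59.9 in ON-BC (-1.96 ± 0.61, limma adjusted p = 0.642). *Sema5a*, the partner of *Sema5b* at plexin A1 and A3, was at 0 to 21.6 in all 6 libraries.

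Pan-BC should lie between ON-BC and OFF-BC for a gene whose level depends only on the mixture of both. For 3 of the 56 tested members the lowest pan-BC value exceeded the highest value of ON-BC or OFF-BC, against 3.71% of all tested genes. The count is near that share and is not read as a trait of the members. *Slit1* was 18.3 to 21.2 in pan-BC and at most 10.3 in the sorted classes, *Ntng2* 28.2 to 30.9 against at most 24.03, and *Ntn3*, a secreted netrin, 89.3 to 103 against at most 80.5. *Ntng2* and *Ntn3* were also higher on average in rods, whose markers summed to 18880 to 23310 in pan-BC, and *Slit1* had no read in rods or blue cones. Cone markers summed to 39470 to 64380 in pan-BC, below the 86160 of OFF-BC replicate 3, and the part of photoreceptor RNA in these values was not tested. *Sema3b* was the converse, with 22.3 to 37.9 in pan-BC and 45.4 to 60.8 in ON-BC and OFF-BC. The share of all genes on that side is not given here. The pan-BC mice lacked the YFP transgene and their gate included BC5D, and the part of either in these values was not tested.

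Bipolar cells were next compared with rods. 41 of the 56 members were called higher in pan-BC, against 27.4% of all genes, and 5 were called higher in rods, against 15.8%. The median log2 fold change was 4.06 over the members (3.81 with the genes that had no read in rods set at their lower bound) and 0.21 over all genes. Under scaling by library totals, which moved the median of all genes to 0.55 and the share of called genes that were higher in pan-BC from 63.4% to 73.8%, the members split 41 to 3. The rule that set aside genes possibly carried over from other cells removed *Epha10* (pan-BC above rods by 4.43 ± 0.22), since blue cones held over 16 times as much as rods and at least 4 times as much as pan-BC.

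Every tested family except the netrins had most of its members on the bipolar side against rods: 9 of 10 Eph receptors, 12 of 18 semaphorins, 5 of 7 plexins, 4 of 6 ephrins, 3 of 5 netrin receptors, 3 of 3 Slits, 2 of 2 Robos and 2 of 2 neuropilins. Of the Robos, *Robo3* averaged 6.06 in pan-BC with no read in rods, a lower bound of 1.97-fold, and its call was lost with a pseudocount of 5 (limma adjusted p = 0.707) and without pan-BC replicate 2 (0.0523). *Epha3* had the largest difference, with 1119, 1107 and 1145 in pan-BC and 2.91, 2.05 and 0 in rods (8.94 ± 0.65, limma adjusted p = 7.27e-09). *Nrp2* had 694, 587 and 657 against 0.970, 0 and 2.16 (8.45 ± 0.52, limma adjusted p = 8.01e-10), and with 3 reads in all rods the exact 95% counting interval of its ratio ran from 215 to 3057. *Epha4* had 3075, 2950 and 3208 against 5.82, 8.20 and 23.8 (8.05 ± 0.43, limma adjusted p = 1.48e-10). These receptors were thus near the floor in rods and among the abundant genes in bipolar cells. *Slit2* (7.32 ± 0.54), *Epha5* (7.25 ± 0.47), *Ntng1* (7.21 ± 0.41), *Sema4g* (6.91 ± 0.41) and *Epha8* (6.89 ± 0.26) completed the 8 largest. Each had no overlap between libraries, which the choice by size favours.

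Higher in rods were *Plxnb1*, a receptor of class 4 semaphorins, with 1053, 1026 and 1144 in rods and 129, 91.8 and 130 in pan-BC (-3.21 ± 0.19, limma adjusted p = 1.22e-08), and *Plxna2*, with 1574, 1756 and 1968 in rods and 197, 183 and 270 in pan-BC (-3.04 ± 0.18, limma adjusted p = 1.61e-08). *Sema4b* (532 to 615 in rods, 168 to 210 in pan-BC, -1.61 ± 0.15, limma adjusted p = 0.00152) and *Sema4c* (136 to 172 against 44.4 to 48.9, -1.70 ± 0.26, limma adjusted p = 0.0204) belong to the class 4 semaphorins, transmembrane ligands of class B plexins. *Ntng2*, netrin-G2, had 114, 124 and 130 in rods and 30.9, 28.2 and 29.4 in pan-BC (-2.02 ± 0.30, limma adjusted p = 0.00470), the opposite side from its relative *Ntng1*. The calls of *Sema4b* and *Sema4c* were lost under scaling by library totals (adjusted p = 0.162 and 0.230), and that of *Sema4c* without pan-BC replicate 2 (0.0557) or rod replicate 1 (0.0643).

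**Figure D3:**
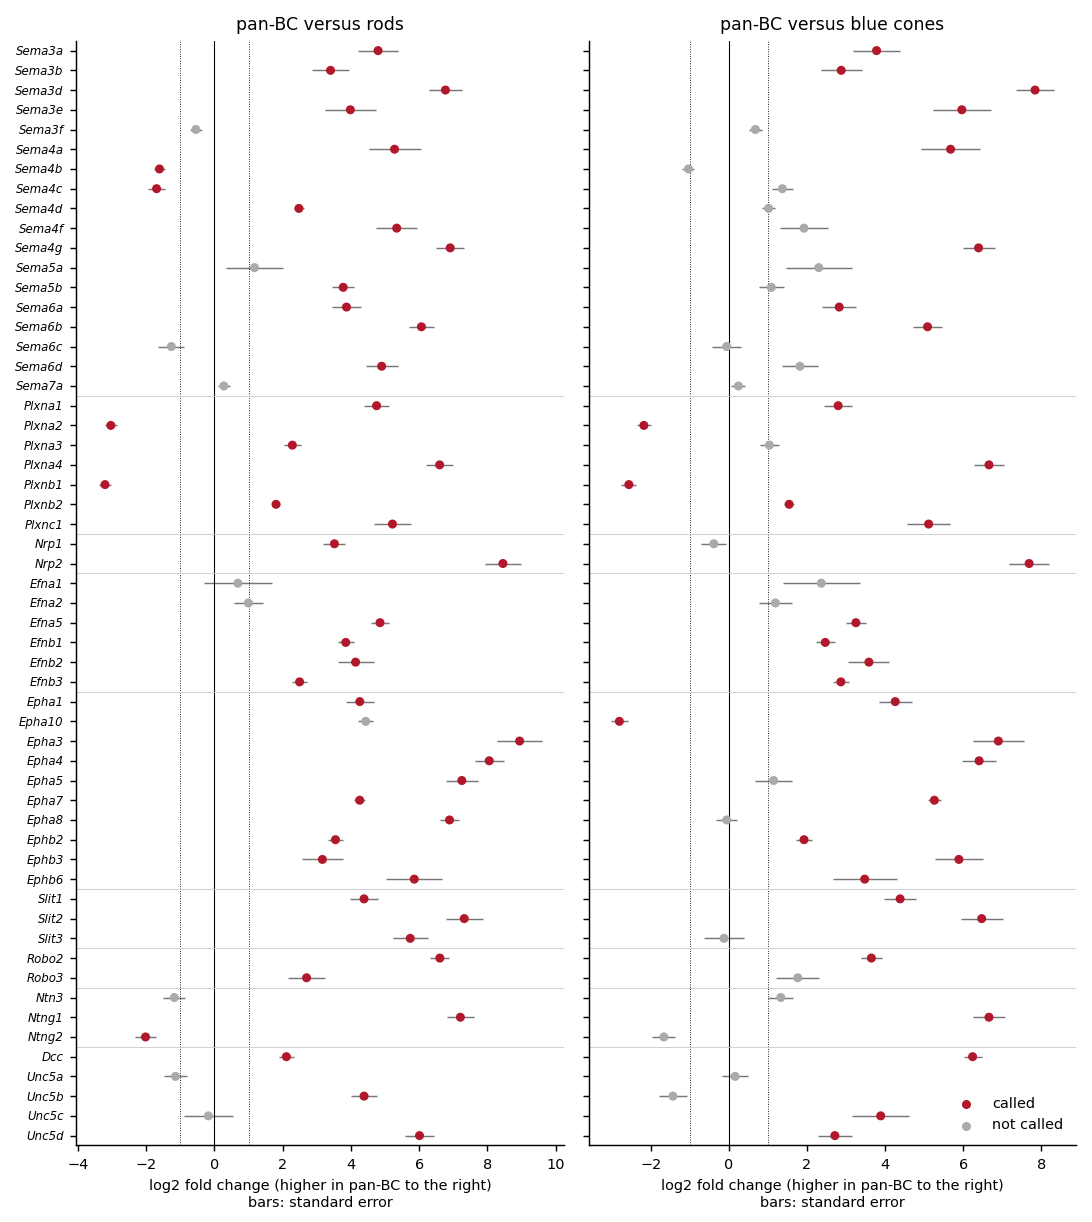
Log2 fold change of the 56 tested members for pan-BC against rods (left) and against blue cones (right), ordered by family (grey lines between families), with the standard error of the fit as bars; red points were called, and dotted lines mark a 2-fold change. Red points lie mostly on the right in both panels, with *Plxna2* and *Plxnb1* on the left in both. *Epha10* against rods is grey because the carry-over rule set it aside.

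Against blue cones, which share the pan-BC libraries with the comparison above, 31 members were called higher in pan-BC (22.5% of all genes) and 3 higher in blue cones (13.7%). The median over the members was 2.59, against 0.16 over all genes. Side by side, 30 members were called higher in pan-BC than in both photoreceptors, 11 higher than in rods with no call against blue cones, 1 (*Unc5c*) higher than in blue cones with no call against rods, and *Plxna2* and *Plxnb1* were called lower than in both. The joint shares over all genes are not given here, and both comparisons use the same pan-BC libraries. These joint counts are therefore not read as a trait of the members. *Sema3d* had 192, 233 and 267 in pan-BC and no read in blue cones, at least 102-fold, so its place in the order of sizes is unknown. Among genes with reads in both, *Nrp2* (7.69 ± 0.52), *Epha3* (6.90 ± 0.65), *Plxna4* (6.66 ± 0.39), *Ntng1* (6.66 ± 0.41), *Slit2* (6.47 ± 0.54), *Epha4* (6.41 ± 0.43) and *Sema4g* (6.39 ± 0.41) had the largest fitted differences. *Dcc*, the netrin receptor, had 1040, 881 and 1069 in pan-BC and 7.52, 14.4 and 16.3 in blue cones (6.24 ± 0.23, limma adjusted p = 1.05e-11), but 193, 221 and 283 in rods. Higher in blue cones were *Epha10* (-2.81 ± 0.22, limma adjusted p = 1.39e-06), *Plxnb1* (-2.57 ± 0.19, limma adjusted p = 1.45e-06) and *Plxna2* (-2.18 ± 0.18, limma adjusted p = 1.76e-05).

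The 11 members called against rods but not against blue cones included *Epha8*, with 298, 381 and 362 in pan-BC and 365, 371 and 344 in blue cones (-0.06 ± 0.26), and *Slit3* (-0.13 ± 0.52) and *Nrp1* (-0.39 ± 0.32). The first 2 turned positive under scaling by library totals (0.22 and 0.15). For these genes rods, not blue cones, were the low photoreceptor population. *Nrp1* was also low in ON-BC (6.05 on average) and *Slit3* in OFF-BC (1.48). *Epha5*, *Plxna3*, *Robo3*, *Sema4d*, *Sema4f*, *Sema5b*, *Sema6d* and *Unc5b* were the other 8. In neither comparison were *Efna1*, *Efna2*, *Ntn3*, *Sema3f*, *Sema5a*, *Sema6c*, *Sema7a* and *Unc5a* called. *Sema7a*, a membrane-linked semaphorin, was between 112 and 189 in all 15 libraries.

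The direct comparison of rods with blue cones called 18 members. 5 were higher in rods, against 4.63% of all genes, and 13 in blue cones, against 11.3%. *Epha10* had 32.0, 48.2 and 68.1 in rods and the blue cone values given above (-7.24 ± 0.22, limma adjusted p = 3.24e-13). *Epha8* had 1.94, 3.07 and 1.08 in rods (-6.95 ± 0.26, limma adjusted p = 8.48e-12), *Epha5* 1.94, 0 and 6.48 against 227, 155 and 201.3 (-6.11 ± 0.47, limma adjusted p = 1.1e-07), and *Slit3* 0, 2.05 and 0, that is 2 reads (-5.87 ± 0.52, limma adjusted p = 6.74e-07, counting interval of the ratio 34.2 to 1034). *Unc5b*, a netrin receptor, had 0.970, 1.02 and 2.16 in rods and 247, 91.1 and 99.2 in blue cones (-5.82 ± 0.37, limma adjusted p = 1.01e-08), and *Nrp1* had 4.85, 6.15 and 9.73 against 114, 108 and 119 (-3.90 ± 0.32, limma adjusted p = 1.15e-06). Higher in rods were *Dcc* (4.13 ± 0.23, limma adjusted p = 6.33e-09), *Unc5c* (4.07 ± 0.73, limma adjusted p = 0.00283, with 1 read in all blue cones and a counting interval of the ratio of 15.4 to 3554), *Sema4c* (3.06 ± 0.26, limma adjusted p = 5.21e-06), *Ephb3* (2.73 ± 0.61, limma adjusted p = 0.0388) and *Ntn3* (2.50 ± 0.32, limma adjusted p = 0.00128). *Ephb3* was at 2.91, 34.8 and 10.8 in rods, and its call was lost without rod replicate 2 (adjusted p = 0.264) or 3 (0.0785) and without blue cone replicate 1 (0.155) or 3 (0.0822), as well as under scaling by library totals (0.0501), with no filter on low counts (0.150), with a pseudocount of 5 (0.561) and with only the compared populations in the fit (0.291). A pseudocount of 5 lowered the log2 fold change of *Unc5c* to 2.24 and ended its call (limma adjusted p = 0.0667), as it did for *Unc5c* between pan-BC and blue cones, and fitting only rods and blue cones ended that of *Ntn3* (0.0533). The call of *Ephb6* against blue cones was lost without blue cone replicate 1. Rods and blue cones also differ in genotype by the loss of *Nrl*, which cannot be told apart from cell type here.

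Genes outside the rule that act with these proteins were read from the same fits. Of 22 ligand and receptor partners, such as the netrin-G ligands of the LRRC4 family, FLRT proteins and DSCAM proteins, 16 were tested. In ON-BC against OFF-BC 1 was called higher in ON-BC (2.80% of all genes) and 0 higher in OFF-BC (3.43%). The called gene was *Dscaml1*, an adhesion molecule, at 1045 ± 84.3 in ON-BC and 231 ± 63.3 in OFF-BC (SD, n = 3, 2.21 ± 0.16, limma adjusted p = 4.15e-05). Against rods 11 were called higher in pan-BC and 0 lower (27.4% and 15.8% of all genes), and against blue cones 10 higher and 2 lower (22.5% and 13.7%). The adhesion molecule *Nrcam* was above rods by 3.20 ± 0.13 and was set aside by the carry-over rule. The netrin-G1 ligand *Lrrc4c* averaged 823 ± 64.0 (pan-BC) against 14.7 ± 1.88 (rods) (5.72 ± 0.38, limma adjusted p = 6.03e-09), on the same side as *Ntng1*. *Lrrc4*, the netrin-G2 ligand, averaged 124 ± 7.58 (pan-BC), 4.55 ± 3.59 (rods) and 317 ± 27.5 (blue cones), and rods thus had *Ntng2* but little *Lrrc4*. Of 35 genes of signal transduction in the growth cone 33 were tested. In ON-BC 3 were higher (2.80% of all genes): *Ablim1* (3.49 ± 0.19), *Dock1* (4.04 ± 0.67) and *Mical2* (2.15 ± 0.36). In OFF-BC 2 were higher (3.43% of all genes): *Rnd1* (-2.30 ± 0.17) and *Pak1* (-2.21 ± 0.19). *Rnd1* encodes a small GTPase that binds plexins, and MICAL proteins act below plexins on actin. Against rods 18 of the 33 were higher in pan-BC and 2 lower, and against blue cones 17 and 3, beside the shares of all genes given above for pan-BC.

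ATAC-seq counts how often open DNA is cut by a transposase. Of 110715 regions of 200 bp, 725 were assigned to a member because its transcription start was the nearest, 82 of them at promoters (up to 1000 bp before or 100 bp after a start) and 643 distal. They covered 71 of the 72 members, with 1 to 54 regions each (median 8), the most for *Efna5*. Of the 714 tested, 466 (65.3%) were more open in pan-BC than in rods, against 40.3% of all regions, and 49 (6.86%) were more open in rods, against 11.2%. Against blue cones the counts were 317 (44.4%, all regions 28.8%) and 33 (4.62%, all regions 7.13%). Against rods 430 of 633 distal regions (67.9%, all distal regions 44.5%) and 36 of 81 promoter regions (44.4%, all promoter regions 17.2%) were more open in pan-BC. Within 50 kb of a start the shares were 50.6% for members and 30.6% for all regions against rods, and 29.1% and 21.0% against blue cones.

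Members with little RNA could have many open regions. *Robo1* had 29 assigned regions, 27 of them called more open in pan-BC than in rods, although its RNA was 7.45 to 9.79 in pan-BC. The region 971 bp upstream of the *Epha6* start was called at 7.85 against rods, while *Epha6* RNA was at most 3.67 in pan-BC. Nearest-gene assignment does not show that a region acts on that gene. *Plxna2* and *Sema3f* had the reverse pattern to the family as a whole, with 6 and 8 regions more open in rods and 1 and 0 more open in pan-BC. The same held, among others, for *Ntng2* (6 in rods, 1 in pan-BC), *Unc5a* (5 and 1), *Ephb4* (4 and 0), *Ephb2* (3 and 1) and *Sema6c* (2 and 0).

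Between ON-BC and OFF-BC, 48 assigned regions (6.72%) were more open in ON-BC, where 4.58% of all regions were called, and 14 (1.96%) in OFF-BC, where 2.80% were called. Under TMM scaling, which moved the median of all regions from 0.15 to -0.07 and the share of called regions more open in ON-BC from 62.1% to 51.9%, the members' counts were 36 and 16. With 2 libraries a group the counts fell when 1 was left out: those more open in ON-BC to 22 without ON-BC replicate 1, 21 without ON-BC replicate 2 and 29 without OFF-BC replicate 1, and those more open in OFF-BC to 4 without either OFF-BC library. None of the 48 and 2 of the 14 were promoter regions, 0.00% and 2.47% of the members' tested promoter regions. Of all promoter regions 0.370% were called toward ON-BC and 0.903% toward OFF-BC. Of the 358 tested regions within 50 kb of a start, 9 (2.51%) were more open in ON-BC, against 2.99% of all regions at that distance, and beyond 50 kb 39 of 356 were (11.0%, all regions 8.29%). By RefSeq annotation 33 of the 62 called regions lay inside the member they were assigned to, 7 only inside another gene, and 22 between genes.

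Of the 15 members whose RNA was called between ON-BC and OFF-BC, 11 had at least 1 called region, and 4 (*Efnb3*, *Nrp1*, *Robo3* and *Sema5b*) had none. The share of all genes with a called region is not given here, so the 11 are not read as a trait of the members. The 6 members with more RNA in ON-BC had 10 of 103 tested regions called in the same direction and 2 in the opposite one. The 9 members with more RNA in OFF-BC had 6 of 77 tested regions in the same direction and 6 in the opposite one, the latter 3 each at *Slit2* and *Plxna4*. Beside these counts, 4.58% of all regions and 6.72% of members' regions were called toward ON-BC. Toward OFF-BC the shares were 2.80% and 1.96%. The plot of region changes shows regions of both directions.

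**Figure D4:**
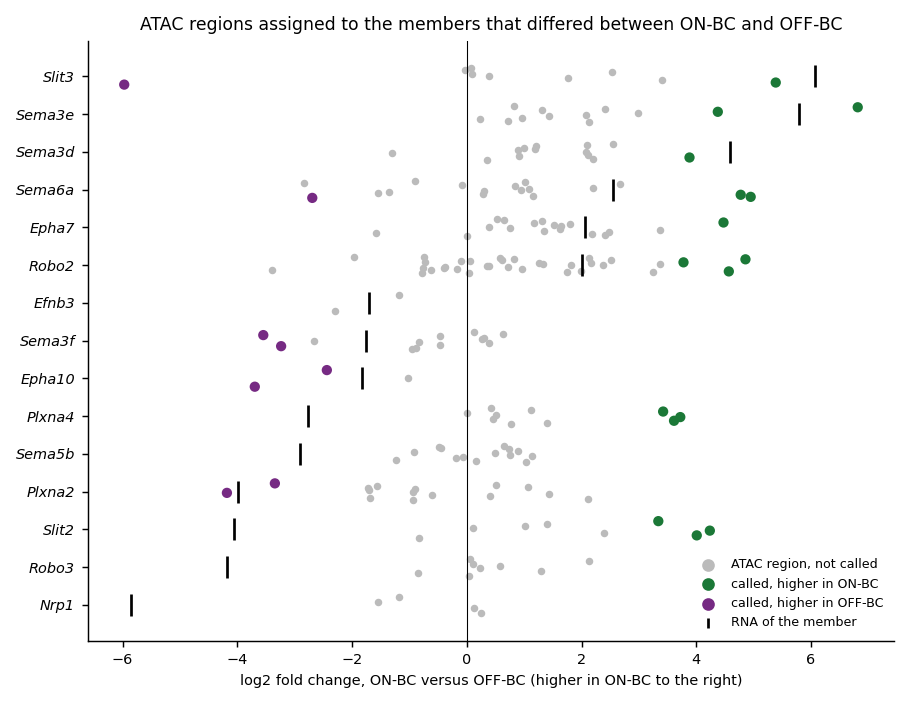
Log2 fold change in accessibility between ON-BC and OFF-BC (horizontal axis, higher in ON-BC to the right) of every tested ATAC-seq region assigned to the 15 members with called RNA, 1 row per member in the order of the RNA change (vertical tick). Coloured points were called, green higher in ON-BC and purple higher in OFF-BC. At *Sema3e*, *Robo2* and *Plxna2* called regions lie on the side of the RNA tick, at *Slit2* and *Plxna4* on the other side, and *Slit3* has 1 of each.

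The 200 bp sequences that carry these contrasts are printed from the plus strand of GRCm38 (RefSeq assembly), for called regions that followed the RNA of *Sema3e*, *Epha7* and *Plxna2*, for both called regions of *Slit3* and for one at *Slit2* that went against its RNA. Capitals mark matches to 3 short motifs searched on either strand. The K50 homeodomain motif TAATCC is the core bound by CRX and OTX2, and 21.8% of all 110715 regions and 21.5% of the 725 regions of members held it. The palindromic Q50 homeodomain motif TAATTA was held by 5.20% of all regions and 7.17% of those of members. The E-box CAGATG, a site of basic helix-loop-helix factors, was held by 22.3% and 26.6%. A match is a description of letters only.
Sema3e, chr5:13955779-13955978, 69398 bp upstream, more open in ON-BC: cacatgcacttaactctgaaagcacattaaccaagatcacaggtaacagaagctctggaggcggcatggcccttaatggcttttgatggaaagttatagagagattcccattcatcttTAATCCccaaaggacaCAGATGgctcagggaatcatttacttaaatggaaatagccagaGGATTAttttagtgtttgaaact
Epha7, chr4:28448150-28448349, 364882 bp upstream, more open in ON-BC: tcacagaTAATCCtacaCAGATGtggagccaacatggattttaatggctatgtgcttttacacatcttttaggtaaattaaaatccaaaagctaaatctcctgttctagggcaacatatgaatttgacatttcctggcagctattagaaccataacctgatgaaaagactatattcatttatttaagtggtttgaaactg
Plxna2, chr1:194650231-194650430, in an intron, more open in OFF-BC: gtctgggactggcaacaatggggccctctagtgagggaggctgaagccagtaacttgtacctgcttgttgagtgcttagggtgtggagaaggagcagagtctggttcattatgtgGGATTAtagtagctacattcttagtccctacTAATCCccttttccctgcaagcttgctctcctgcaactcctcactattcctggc
Slit3, chr11:35222276-35222475, in an intron, more open in ON-BC: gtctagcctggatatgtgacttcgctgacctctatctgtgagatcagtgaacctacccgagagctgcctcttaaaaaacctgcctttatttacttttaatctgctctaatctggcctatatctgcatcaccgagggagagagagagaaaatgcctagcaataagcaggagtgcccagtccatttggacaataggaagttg
Slit3, chr11:35318258-35318457, in an intron, more open in OFF-BC: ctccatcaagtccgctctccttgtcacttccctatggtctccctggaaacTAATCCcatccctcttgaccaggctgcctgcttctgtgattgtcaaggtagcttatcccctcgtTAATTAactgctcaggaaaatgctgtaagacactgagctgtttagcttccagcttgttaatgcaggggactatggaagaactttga
Slit2, chr5:48003842-48004041, in an intron, more open in ON-BC: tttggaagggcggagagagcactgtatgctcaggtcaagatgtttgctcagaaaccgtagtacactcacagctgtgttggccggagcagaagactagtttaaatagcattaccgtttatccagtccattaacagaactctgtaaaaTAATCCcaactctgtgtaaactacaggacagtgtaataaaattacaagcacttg

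The intergenic *Sema3e* region had normalized counts of 252 and 318 in the ON-BC libraries and 5.39 and 0 in OFF-BC (6.81 ± 0.82, limma adjusted p = 0.000229), with at most 2.59 in any rod or cone library. It held 2 matches to TAATCC and 1 to CAGATG. A second *Sema3e* region, in an intron 24658 bp from the start, had 85.1 and 89.3 against 2.69 and 3.89 (4.37 ± 0.67, limma adjusted p = 0.00260), and the promoter region itself, at 103 and 114 against 32.3 and 11.7, was not called (2.41 ± 0.77, limma adjusted p = 0.274). The intergenic *Epha7* region had 264 and 287 in ON-BC and 18.9 and 6.81 in OFF-BC (4.47 ± 0.61, limma adjusted p = 0.00107), and 0 to 2.59 in rods and cones, while the *Epha7* promoter region was open in both classes (1009 and 1155 against 934 and 731). At both genes the called regions were distal, as were 4911 of the 4972 regions called toward ON-BC over all genes.

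At *Plxna2* the region printed above, 30501 bp into the gene, had no read in ON-BC. It read 21.6 and 13.6 in the OFF-BC libraries, while rods gave 62.3 and 65.7 and blue cones 25.9 and 50.6, which puts OFF-BC at least 3.97-fold over ON-BC. That is the order of the *Plxna2* RNA in ON-BC, OFF-BC and rods. Its promoter region gave ON-BC values of 118 and 49.8, OFF-BC values of 276 and 231 and rod values of 521 and 546. It was not called between ON-BC and OFF-BC (-1.71 ± 0.26, limma adjusted p = 0.0780). *Epha10* had the called promoter region among these 15 members, chr4:124881346-124881545, 340 bp upstream of the start and inside an annotated exon, with ON-BC values of 14.9 and 11.7, OFF-BC values of 68.7 and 84.7 and blue cone values of 117 and 96.8 (-2.44 ± 0.39, limma adjusted p = 0.0176).

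*Slit3* held 2 intronic regions with opposite contrasts. The first, 100919 bp from the start, had 34.3 and 48.3 in ON-BC and no read in OFF-BC, at least 11.9-fold, and at most 2.59 in rods and cones. The second, 196901 bp from the start, where RefSeq also places an exon of the gene model *Gm46277*, had 0 and 4.39 in ON-BC and 174 and 121 in OFF-BC (-5.97 ± 0.51, limma adjusted p = 1.78e-05), and on the 3 reads of ON-BC the counting interval of the ratio was 21.8 to 315. It was also open in blue cones (312 and 255) and green cones (155 and 183), but at 11.7 and 10.8 in rods. *Slit3* RNA was high in ON-BC and in blue cones and near 0 in OFF-BC and rods, so that the second region was open in OFF-BC without *Slit3* RNA. It held 1 match each to TAATCC and TAATTA, and the first region held none of the 3 motifs.

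At *Slit2*, whose RNA was far higher in OFF-BC, the 3 called regions were all more open in ON-BC: the printed intronic region had 38.8 and 51.2 in ON-BC and 0 and 4.87 in OFF-BC (4.23 ± 0.89, limma adjusted p = 0.0195), another intronic region 128 and 114 against 10.8 and 3.89 (4.01 ± 0.76, limma adjusted p = 0.0122), and a region between genes 134 and 204 against 18.9 and 12.7 (3.34 ± 0.67, limma adjusted p = 0.0249). The *Slit2* promoter region was even, with 148 and 129 in ON-BC and 121 and 134 in OFF-BC. *Plxna4* likewise had an even promoter region (121 and 93.7 against 104 and 110) and 3 distal regions more open in ON-BC, of which 2 lay in an intron of the neighbouring gene *Chchd3* and 1 over an exon of the gene model *Gm46956*. In an intron of *Plxna4* itself, a region whose nearest start was that of *Plxna4os1* went with the *Plxna4* RNA, with no read in ON-BC and 16.2 and 20.4 in OFF-BC, at least 4.13-fold (limma adjusted p = 0.0170). *Nrp1*, with the widest RNA contrast toward OFF-BC, had 4 assigned regions and none called. Its promoter region was at 5.97 and 7.32 in ON-BC and 16.2 and 28.2 in OFF-BC (-1.56 ± 0.59, limma adjusted p = 0.725).

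Other members had regions called between ON-BC and OFF-BC without an RNA call. *Efna5* and *Ntng1* had 5 regions each more open in ON-BC, *Epha3* had 4, and *Epha5*, *Unc5c* and *Unc5d* had 3 each. For *Epha3*, *Efna5* (1430 to 1517 against 786.8 to 1326, -0.44 on the log2 scale) and *Dcc*, with 2 such regions, the RNA values of all OFF-BC libraries lay above those of ON-BC although no difference was called, the opposite side from their regions. Other tested members without an RNA call had separate libraries on the same side as their regions. They were *Unc5d* (log2 fold change 1.46), *Sema6d* (2.11, 2 regions more open in ON-BC) and *Unc5a* (-1.07, 1 region more open in OFF-BC). How many of all genes separate in this way is not given here, so neither group is read as a trend. In all, 29 members had at least 1 region called between ON-BC and OFF-BC. Members had 1 to 54 assigned regions each, and the share of all genes with such a region is not given here. The count of 29 is therefore not read as a trait of the members.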

How the data were processed

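Per the labels and the study's methods, cDNA was made with the SMARTer Ultra Low kit, reads were aligned with STAR 2.7.0d to mm10 (GRCm38) and counted per RefSeq gene with HTSeq. Whether counting used strand is not given in the sources used here, so reads of a gene and of an antisense partner such as *Plxna4os1* cannot be told apart. ATAC-seq reads were aligned with Bowtie2, duplicates were marked with Picard 2.19.0, fragments up to nucleosome-free length were kept, and peaks were called with MACS2 2.1.1. Versions are those of the submitters' processing notes. Replicates are biological replicates by the study's account.

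The deposited RNA-seq and ATAC-seq tables hold a normalized signal: per the file values, the authors divided counts by 1 size factor per library, since each of the 230384 RNA and 1212862 ATAC values above 0 was a whole multiple of its library's step (tolerance 0.01 read). Reads were recovered from these steps and used for depth, the filter (edgeR filterByExpr) and the count tests. Intervals, floors (3 reads per library) and tests cover counting error and the spread between libraries only.

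The main test was limma 3.58.1 (treat, trend, threshold of log2 fold change 1) on log2(normalized count + 1), with 1 level per population over all 15 RNA or 12 ATAC libraries, in R 4.3.3, with Benjamini-Hochberg adjustment over all genes or regions. edgeR 4.0.16 and DESeq2 1.42.0 were alternatives. A carry-over rule withheld a call in ON-BC against OFF-BC when rods or blue cones exceeded the enriched population over 16-fold, and in pan-BC against 1 photoreceptor when the other exceeded that photoreceptor over 16-fold and reached 4-fold of pan-BC, or the reverse. Regions were assigned to the nearest of 45756 RefSeq transcript starts. Sequences and exon lengths came from RefSeq GRCm38.p6. The scripts were tested on simulated data.

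Named members were those called between ON-BC and OFF-BC (up to 12 a direction), the 8 largest called a direction for pan-BC against each photoreceptor, the 6 largest for rods against blue cones, the leading member per kb of each family in pan-BC and rods, and known retinal ligand and receptor pairs. Others given were chosen after their values were seen. The members and lists were chosen with earlier results of these data known. Green cone ATAC-seq libraries from a double sort were not analysed here.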

Additional observations from a re-analysis of the deposited data

How the results depend on the processing

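75 log2 fold changes of members were followed, 50 of them called and named by size and 25 others. Of their 1350 values under alternatives 10 changed sign, all of members not called: scaling by library totals gave 0.22 for *Epha8* and 0.15 for *Slit3* in pan-BC against blue cones, and leaving out 1 library gave -0.13 to 0.046 for *Epha8* and -0.35 to 0.086 for *Slit3* there, and -0.13 to 0.13 for *Ntng1*, -0.35 to 0.11 for *Ntng2* and -0.095 to 1.53 for *Unc5c* in ON-BC against OFF-BC. Counts of called members moved by over 1.5 times mainly with the definition of a call. With limma's test against no change in place of a 2-fold threshold, 10 and 17 members were called higher in ON-BC and OFF-BC, 9 higher in rods than in pan-BC, 6 higher in blue cones than in pan-BC, and 13 and 21 higher in rods and blue cones. Over all genes the calls under that test rose from 393 and 481 to 1725 and 1930 for ON-BC and OFF-BC. They rose from 2211 to 4963 for rods over pan-BC and from 1915 to 4814 for blue cones over pan-BC. Between rods and blue cones they rose from 650 and 1581 to 3810 and 4258. With edgeR's F test and a fitted 2-fold minimum, 15 were called higher in OFF-BC, 8 in rods against pan-BC, 6 in blue cones against pan-BC and 11 in rods against blue cones. edgeR's threshold test called 5 higher in blue cones than in pan-BC, and 99 assigned regions more open in ON-BC than in OFF-BC and 58 in blue cones than in pan-BC. It called 2241 of all genes higher in blue cones than in pan-BC. Its calls over all regions rose from 4972 to 9713 toward ON-BC and from 7731 to 12140 toward blue cones against pan-BC. DESeq2 called 2 regions more open in OFF-BC, while its calls over all regions on that side fell from 3038 to 1014. Scaling to library totals left 3 members higher in rods than in pan-BC, and 1578 of all genes in place of 2211. A pseudocount of 5 left 3 higher in rods than in blue cones and 8 regions more open in OFF-BC, and fitting only the compared populations left 3 members higher in rods than in blue cones. Over all genes 622 and 590 were higher in rods under these 2 settings, in place of 650. Over all regions the pseudocount of 5 left 1971 more open in OFF-BC, in place of 3038. Within 50 kb of a start (358 regions) 9 regions were more open in ON-BC than in OFF-BC, and for pan-BC the counts were 181 against rods and 104 against blue cones. The cause of these changes was not tested.

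Leaving out 1 library gave 4 to 6 members higher in ON-BC and 7 to 8 in OFF-BC, 40 to 41 members above and 4 to 5 below rods in pan-BC, 31 to 32 above and 3 below blue cones, and 4 to 5 higher in rods and 12 to 15 in blue cones. For regions it gave 21 to 39 more open in ON-BC and 4 to 13 in OFF-BC, 409 to 442 and 37 to 46 for pan-BC and rods, and 238 to 292 and 22 to 25 for pan-BC and blue cones. Over all regions, leaving out 1 ON-BC or OFF-BC library gave 2146 to 3994 more open in ON-BC and 1390 to 3217 in OFF-BC. In ATAC-seq, 1 read stands for a normalized count of 0.973 or 1.35 in OFF-BC and 1.46 or 1.49 in ON-BC, the step below which no region value can be read.

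Same-numbered ON-BC and OFF-BC libraries share a postnatal day, and their deviations from the group means correlated at -0.076, 0.222 and -0.065. With 3 libraries a group these deviations constrain each other, so the correlations cannot decide whether the libraries were paired. A replicate block was fitted with an offset per replicate number over all bipolar populations and, apart, over the photoreceptors. It tied pan-BC to ON-BC and OFF-BC libraries of other postnatal days, and rods to cones by number alone. The block is therefore not a model of a pairing of ON-BC with OFF-BC. With the replicate block, the members called were 6 and 9 for ON-BC and OFF-BC, 41 and 5 for pan-BC and rods, 31 and 3 for pan-BC and blue cones, and 5 and 16 for rods and blue cones, and the regions 49 and 14, 462 and 49, and 318 and 32 in the first 3 comparisons.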
